A study of Mus musculus with 6 samples.

Results

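The neuromuscular junction genes described here are 10 mouse genes that help build the synapse between motor nerve and muscle fibre: Chrna1, Chrnb1, Chrnd, Chrng, Chrne, Musk, Rapsn, Dok7, Agrn and Lrp4. They are 10 of 21887 protein-coding genes of the RefSeq annotation on the assembled chromosomes, and they were chosen by name. Chrnd and Chrng are neighbours on chromosome 1 and were counted as 1 locus, which leaves 9 loci. Every ChIRP peak that overlapped the span of a gene or the 20 kb on either side was taken, which gave 65 of 157214 peaks in the list of replicate 1 (list 1) and 62 of 179630 in the list of replicate 2 (list 2).

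The peaks come from ChIRP-seq of LncMyoD, a long non-coding RNA transcribed near Myod1. Biotin-labelled DNA probes pulled LncMyoD out of sonicated nuclei, and the DNA that came with it was sequenced. All 6 samples were primary myoblasts of C57BL/6 mice kept for 2 days in medium with 2% horse serum and labelled as differentiated myotubes: 2 with odd probes, 2 with even probes and 2 of input. Each list carries the name that the odd, even and input samples of 1 replicate share, so it stands for a replicate and not for a probe pool, and no comparison of probe pools with input could be made. The labels name no genetic change, no drug and no nerve cells in the cultures, and leave unsaid if each replicate was its own culture, so differences between list 1 and list 2 could be technical only. Peak lists hold positions on DNA and no expression, so the labelled cell type could not be checked against marker genes. The sources used here give no sequencing depth, and without replicate lists per group no difference between groups could be tested.

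At the synapse, agrin (Agrn) released by the motor nerve binds the co-receptor Lrp4, which activates the receptor tyrosine kinase MuSK (Musk). Dok7 is the adaptor that MuSK needs inside the cell, and rapsyn (Rapsn) is the scaffold that gathers acetylcholine receptors under the nerve ending. The muscle acetylcholine receptor is built from the subunits encoded by Chrna1, Chrnb1 and Chrnd together with Chrng in the fetal form or Chrne in the adult form. In cultured muscle, MyoD and its relatives are known to switch on receptor subunit genes through E-boxes, and at the adult synapse an element called the N-box drives several of these genes.

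Each of the 9 loci held at least 1 shared region, a stretch where peaks of both lists overlapped by 1 bp or more. Over all protein-coding genes, 89.6% had a shared region in such a window, so the count lies near the background. With flanks of 50 kb, all 10 genes had one, against 97.7%. In the 9 windows, 40 shared regions were counted. Inside the genes themselves the regions were fewer: 5 of the 10 genes (Chrng, Musk, Dok7, Agrn and Lrp4) held a shared region in their own span, against 56.4% of all protein-coding genes. The 10 regions inside the genes lay 4 in Dok7, 3 in Lrp4 and 1 each in Agrn, Musk and Chrng. The other 30 lay beside them, and 25 of those 30 overlapped another annotated gene. The share of all shared regions that overlap an annotated gene was not computed, so this count has no background beside it. Because most regions counted here lie over neighbouring genes, each locus is described with the gene that its regions overlap.

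The promoter sequences show where the peaks did and did not reach gene starts. RefSeq promoter windows of build GRCm38.p6, from 250 bases before to 50 bases after a start, were matched for 7 of the 10 genes, with 9 windows in all. A peak of each list overlapped 1 of these 9, the upstream window of Agrn, against 6.85% of 32851 promoter windows of all genes. Taken singly, list 1 and list 2 each overlapped this same window alone, against 9.49% and 11.5% of all windows. Among the 24 promoter windows of other genes in the 9 loci, 3 were overlapped by a peak of each list, those of Fgf11, Gm13777 and Lrpap1. The windows of Agrn, Fgf11 and Lrpap1 are shown 5′ to 3′ in the direction of the gene, with the bases that lie under peaks of both lists in capitals. They lie at chr4:156197439-156197738, chr11:69802231-69802530 and chr5:35105650-35105949, each on the minus strand.
Agrn: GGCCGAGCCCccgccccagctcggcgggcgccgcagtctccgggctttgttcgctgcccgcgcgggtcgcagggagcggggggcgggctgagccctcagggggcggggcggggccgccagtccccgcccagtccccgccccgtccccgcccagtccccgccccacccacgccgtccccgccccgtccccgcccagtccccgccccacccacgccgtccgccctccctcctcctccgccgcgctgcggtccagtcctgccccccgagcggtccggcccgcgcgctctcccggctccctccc
Fgf11: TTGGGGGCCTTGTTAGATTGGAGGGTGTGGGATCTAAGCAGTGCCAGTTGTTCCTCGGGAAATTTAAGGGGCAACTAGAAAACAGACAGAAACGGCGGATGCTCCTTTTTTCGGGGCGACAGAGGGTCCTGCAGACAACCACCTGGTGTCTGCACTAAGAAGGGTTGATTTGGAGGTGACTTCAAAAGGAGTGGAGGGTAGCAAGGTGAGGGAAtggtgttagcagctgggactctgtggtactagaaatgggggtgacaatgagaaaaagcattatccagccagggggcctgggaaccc
Lrpap1: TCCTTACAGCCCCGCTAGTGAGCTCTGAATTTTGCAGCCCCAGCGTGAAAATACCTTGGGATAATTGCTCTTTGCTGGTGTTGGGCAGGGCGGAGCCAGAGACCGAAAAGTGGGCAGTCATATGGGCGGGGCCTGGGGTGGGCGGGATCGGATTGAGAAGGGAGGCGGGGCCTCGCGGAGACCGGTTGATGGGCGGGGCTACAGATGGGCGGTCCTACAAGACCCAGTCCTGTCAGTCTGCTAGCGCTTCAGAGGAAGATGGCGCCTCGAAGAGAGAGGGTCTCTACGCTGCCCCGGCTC

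In the Agrn window, 10 of 300 bases lay under the peak of list 1 and 38 under that of list 2, at the end farthest from the start, so the peaks touch this promoter and do not cover it. The Fgf11 window had 214 and 300 of its bases under the peaks of lists 1 and 2, and the Lrpap1 window had all 300 under both. G and C made up 83.3% of the Agrn window, against a median of 52.7% over all promoter windows.

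The promoters of the subunit genes Chrna1, Chrng and Chrne are shown because, among the 4 subunit genes with a matched window, they are those with the E-box core CAGCTG. The window of Chrnb1 had 3 E-boxes, 1 of them CACCTG and none CAGCTG. No peak of either list overlapped the 3 windows shown. They lie at chr2:73580289-73580588 on the minus strand, chr1:87205561-87205860 on the plus strand and chr11:70619145-70619444 on the minus strand. Capitals mark each E-box, searched as CANNTG on both strands, and in Chrne also the N-box, searched as CCGGAA on both strands.
Chrna1: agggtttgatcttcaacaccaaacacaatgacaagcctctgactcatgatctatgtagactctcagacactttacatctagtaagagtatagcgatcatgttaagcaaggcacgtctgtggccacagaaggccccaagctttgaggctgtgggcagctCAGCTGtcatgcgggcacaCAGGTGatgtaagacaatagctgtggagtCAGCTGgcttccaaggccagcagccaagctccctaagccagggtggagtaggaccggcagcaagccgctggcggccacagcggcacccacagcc
Chrng: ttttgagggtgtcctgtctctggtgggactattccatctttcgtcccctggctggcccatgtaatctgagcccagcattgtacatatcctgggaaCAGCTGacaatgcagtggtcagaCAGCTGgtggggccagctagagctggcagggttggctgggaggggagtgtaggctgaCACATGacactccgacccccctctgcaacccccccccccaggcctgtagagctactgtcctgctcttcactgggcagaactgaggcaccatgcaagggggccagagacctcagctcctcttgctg
Chrne: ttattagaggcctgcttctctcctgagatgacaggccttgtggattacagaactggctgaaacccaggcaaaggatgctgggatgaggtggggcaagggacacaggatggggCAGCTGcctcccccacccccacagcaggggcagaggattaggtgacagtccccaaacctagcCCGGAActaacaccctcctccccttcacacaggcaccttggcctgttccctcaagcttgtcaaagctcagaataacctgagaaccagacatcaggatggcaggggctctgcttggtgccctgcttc

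Chrna1 and Chrng had 3 E-boxes each, 2 of them with the core CAGCTG. Chrne had 1 E-box, also CAGCTG, and 1 N-box. An E-box was found in 7 of the 9 windows of the junction genes, against 72.3% of all promoter windows. The core CAGCTG, which is 1 of the sequences counted as E-boxes, was in 4 of the 9 windows against 16.3%, and CACCTG, counted on both strands, was in 2 of the 9 against 20.2%. The N-box was in 1 of the 9 against 14.9%. These matches describe letters in the windows. The nearest summit of list 1 lay 15106 bp from the Chrna1 start, 2148 bp from the Chrng start and 7134 bp from the Chrne start, and those of list 2 lay 18325, 2222 and 7159 bp away.

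**Figure D1:**
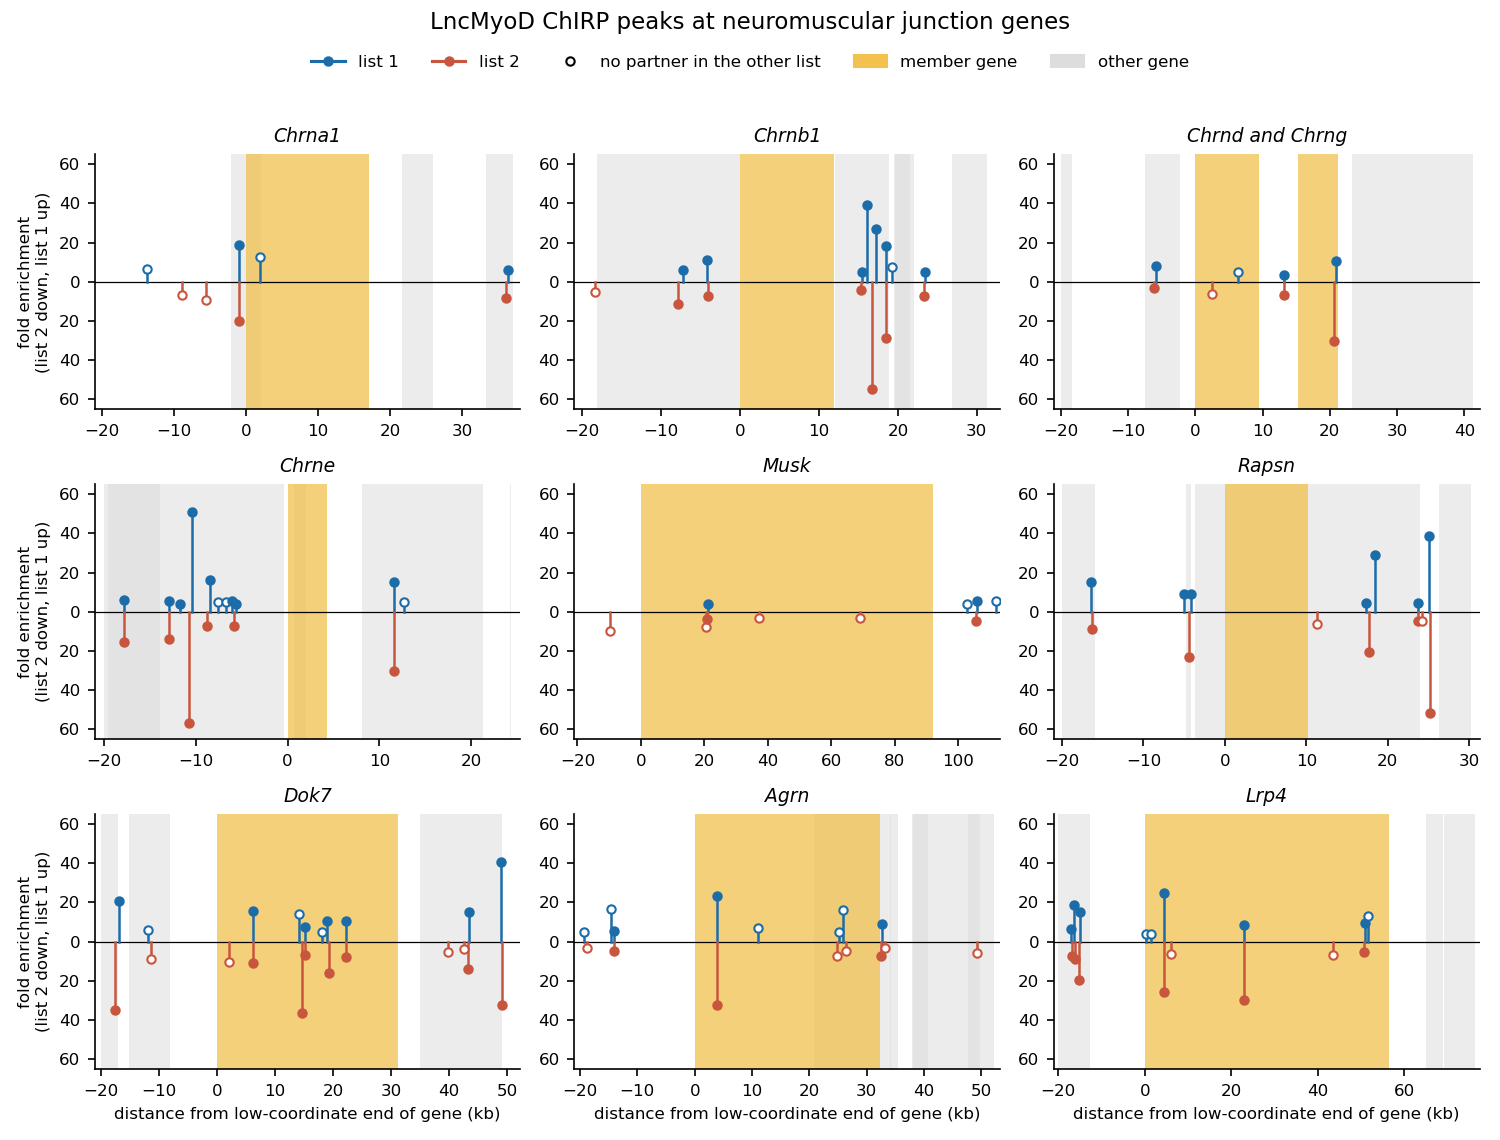
Peaks in the 9 windows, by distance in kb from the low-coordinate end of the gene (x axis) and fold enrichment at the summit (y axis, list 1 upward and list 2 downward). Filled circles are peaks that overlap a peak of the other list and open circles those that do not; yellow bands are the junction genes and grey bands other genes. At Chrnb1, Chrne and Rapsn the tallest peaks stand outside the yellow band, and at Musk no peak exceeds 9.88-fold.

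Agrn, the gene of the nerve-derived ligand, held 1 strong region inside the gene. It lay on chromosome 4 from 156168316 to 156169947, near the low-coordinate end of the gene (156165290 to 156197533), which is its 3′ end. Its folds, the authors' enrichment at the summit over the peak caller's background, were 23.1 in list 1 and 32.1 in list 2, with summits 40 bp apart. The region that touches the promoter, from 156197701 to 156198039, was weaker, with folds of 8.81 and 7.10 and summits 16 bp apart. It overlapped the non-coding RNA gene Gm46878, which starts inside Agrn and runs past its start. Another region lay 13871 bp downstream of Agrn, with folds of 5.51 and 4.63.

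Agrn also had the largest pair of peaks in the 9 loci that only list 1 contained. One reached 16.5-fold 14427 bp downstream of the gene, and the other reached 16.2-fold inside the gene, from 156190945 to 156191495. The nearest list 2 peak to the one inside lay 16 bp beyond its border and had a fold of 4.94. A second list 1 peak inside Agrn, of 5.14-fold, also lay 16 bp from a list 2 peak of 7.10-fold. In all, 3 of 8 peaks of list 1 and 3 of 8 of list 2 at Agrn had a partner, the lowest share of list 1 among the 9 loci.

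Lrp4, the co-receptor that binds agrin, had 6 shared regions, 3 of them inside the gene (chromosome 2, 91457456 to 91513901). The strongest inside, from 91461325 to 91462403, had folds of 24.7 and 25.6 with summits 32 bp apart. A region from 91480028 to 91480808 had folds of 8.45 in list 1 and 30.0 in list 2, with summits 165 bp apart. The list 2 summit lay just outside the list 1 peak, so these folds belong to different positions. The last, from 91507905 to 91508603, had folds of 9.55 and 5.25. The other 3 regions overlapped 1110051M20Rik, a gene on the low-coordinate side, with folds of 6.24 and 7.10, 18.7 and 8.94, and 15.1 and 19.5.

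Musk, the gene of the agrin-activated kinase, is the longest of the 10 genes at 92.1 kb and had the weakest signal. Its window of 132.1 kb held 4 peaks of list 1 and 6 of list 2. A single shared region lay inside the gene (chromosome 4, 58306542 to 58307039), with folds of 3.75 and 3.95, and took place 96133 of 97115 shared regions ordered by their percentile of −log10 q, averaged between list 1 and list 2. List 2 also had an unpartnered peak of 8.03-fold 354 bp from the list 1 peak of this region. The other shared region lay 13489 bp downstream, with folds of 5.30 and 4.65. The highest folds in the window were 5.51 in list 1 and 9.88 in list 2, and the 9.88-fold peak, 9532 bp upstream of the gene, had no partner in list 1. At 1.51 shared regions per 100 kb, 14.7% of protein-coding genes had a lower density.

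Dok7, the adaptor of MuSK, held the most shared regions inside a gene, with 4 in 31.3 kb. The region nearest the start of the gene, on chromosome 5 from 35062252 to 35063528, had folds of 15.4 and 10.8. The next, from 35071036 to 35071977, had folds of 7.71 in list 1 and 36.1 in list 2, the widest gap between the lists among the 40 regions (4.69 times). These 2 summits lay 350 bp apart, and that of list 1 fell outside the 36.1-fold peak, so the folds belong to different positions. In list 2 the region consisted of 2 peaks, the weaker of 6.79-fold. A further list 1 peak of 13.96-fold ended 171 bp from the nearer of them. The remaining regions inside Dok7 had folds of 10.7 and 16.2, and of 10.6 and 7.64.

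The strongest region in the Dok7 window lay over another gene. It ran from 35104517 to 35106560, over the promoter of Lrpap1 shown above, with folds of 40.4 and 32.4 and summits at the same base. Lrpap1 encodes the receptor-associated protein, a chaperone for receptors of the LDL receptor family. Another region inside Lrpap1 had folds of 15.1 and 13.9. On the upstream side, 16284 bp from Dok7, a region at an end of Rgs12, a regulator of G protein signalling, had folds of 20.9 and 34.9.

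Rapsn, the scaffold gene, held no peak of either list in its own span (chromosome 2, 91035472 to 91045729), yet its window contained 5 shared regions, 2 of them above 20-fold in both lists. The stronger, from 91059856 to 91061387, had folds of 38.6 and 51.9 and lay between Psmc3, which encodes a proteasome ATPase, and the zinc transporter gene Slc39a13. It was 14127 bp from Rapsn and its summits were 10 bp apart. The next, from 91052196 to 91054317, had folds of 29.0 and 20.7 and overlapped the low-coordinate end of Psmc3 together with Gm13778, a locus whose annotated span also contains Rapsn. Closest to Rapsn among shared regions was one at 3960 bp, over Gm13777, with folds of 8.81 and 22.9. The other 2 lay over an end of Celf1, an RNA-binding protein gene (15.4 and 8.65), and inside Psmc3 (4.31 and 4.63).

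Among the receptor subunit genes, few peaks lay within the genes themselves. These genes are short, from 4.3 kb (Chrne) to 17.1 kb (Chrna1), against a median of 17.2 kb over all protein-coding genes. Spans of all protein-coding genes held 3.96 shared regions per 100 kb, and 56.4% of these genes held one. Chrna1, Chrnb1, Chrnd and Chrne had no shared region in their spans, and Chrng had 1. Chrnb1 and Chrne had no peak of either list, Chrnd had 1 unpartnered peak of each list, of 5.14-fold and 6.18-fold, and Chrna1 had 1 unpartnered peak of list 1, of 12.7-fold, which also overlapped the non-coding RNA gene Gm30940.

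Chrna1, which encodes the subunit that contributes most to the acetylcholine binding site, had a shared region 357 bp beyond its 3′ end, on chromosome 2 from 73561717 to 73562924. Its folds were 18.6 and 20.1 with summits 34 bp apart, and it lay over Gm30940. The only other shared region of the window, 18699 bp upstream over Chn1os3, had folds of 5.88 and 8.34. The first region was much the stronger in both lists.

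Chrnb1, the beta subunit gene, had 6 shared regions, and the strongest was among the 3 on its upstream side that overlapped Fgf11. Fgf11 belongs to the intracellular branch of the fibroblast growth factor family. The region from 69799648 to 69801914 on chromosome 11 had folds of 39.0 and 54.7 and lay 3682 bp from Chrnb1. In list 1 it was made of 2 peaks and in list 2 of a single wider one. A second, over the Fgf11 promoter shown above, had folds of 18.2 and 28.4. The last of these, beside the strongest, had folds of only 4.77 and 4.32. The downstream neighbour Zbtb4, a zinc finger gene, held 2 regions (5.97 and 11.1, 11.4 and 7.41), and the sixth region lay between genes with 5.01 and 7.21.

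Chrne, the adult epsilon subunit gene, had the strongest region of all 9 loci and the highest density of shared regions, yet none within 5 kb of the gene. The strongest ran from 70603038 to 70605573 on chromosome 11, 9310 bp downstream of Chrne and inside Mink1, which encodes a Ste20-family kinase. Its folds were 50.7 and 56.8, and it ranked 4460 by q in list 1 and 2355 in list 2. The other 4 regions over Mink1 were weaker, with folds between 5.30 and 16.2 in list 1 and between 7.10 and 15.4 in list 2. A region 6701 bp upstream of Chrne, over the non-coding RNA gene Gm12315, had folds of 15.4 and 30.3.

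The window of Chrnd and Chrng, the delta and gamma subunit genes, held 3 shared regions. The strongest was inside Chrng close to its 3′ end, on chromosome 1 from 87211019 to 87211650, with folds of 10.7 in list 1 and 30.3 in list 2. The interval between the 2 genes held a region 1768 bp upstream of Chrng, from 87203441 to 87204043, with folds of 3.31 and 6.49. A region over Prss56, a serine protease gene on the low-coordinate side, had folds of 8.08 and 3.10. From the strongest to the Prss56 region, the ratios of higher to lower fold were 2.84, 1.96 and 2.60. In the same order, the summits of the lists lay 204, 74 and 512 bp apart.

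The lists were compared peak by peak to see how far the signal at these genes repeated. Of the 65 peaks of list 1, 45 had a partner in list 2 (69.2%, 95% exact binomial interval 56.55 to 80.09%), against 67.2% of all peaks of list 1. Of the 62 peaks of list 2, 41 had a partner in list 1 (66.1%, interval 53.0 to 77.7%), against 57.85% of all peaks of list 2. Both intervals contain the value of the whole list. They cover counting error only. Partnered peaks had median folds of 9.55 and 11.1 in lists 1 and 2, against 10.4 and 11.4 for all partnered peaks of these lists. Unpartnered peaks had 5.33 and 6.18, against 5.73 and 5.87 for all unpartnered peaks, so the contrast lies near that of the whole lists. Unpartnered peaks were low in most cases, with 15 of 20 in list 1 and 20 of 21 in list 2 under 10-fold. Of the unpartnered peaks, 12 of list 1 and 8 of list 2 lay within 1000 bp of a peak of the other list. The shares of all unpartnered peaks under 10-fold or within 1000 bp were not computed, so these counts have no background beside them.

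In height, 31 of the 40 shared regions (77.5%) had folds within a factor of 2 of each other, against 85.5% of all shared regions. Summits lay within 200 bp of each other in 27 (67.5%), against 77.2% genome-wide. Spearman's rho between the folds of the lists was 0.721 over the 40 regions and 0.763 over all regions, given as a description, since the regions share the same libraries. List 2 had the higher fold in 25 of the 40. The same share over all shared regions was not computed, and over the whole lists partnered peaks also had the higher median fold in list 2. Fold is the authors' value for each peak within its own list.

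**Figure D2:**
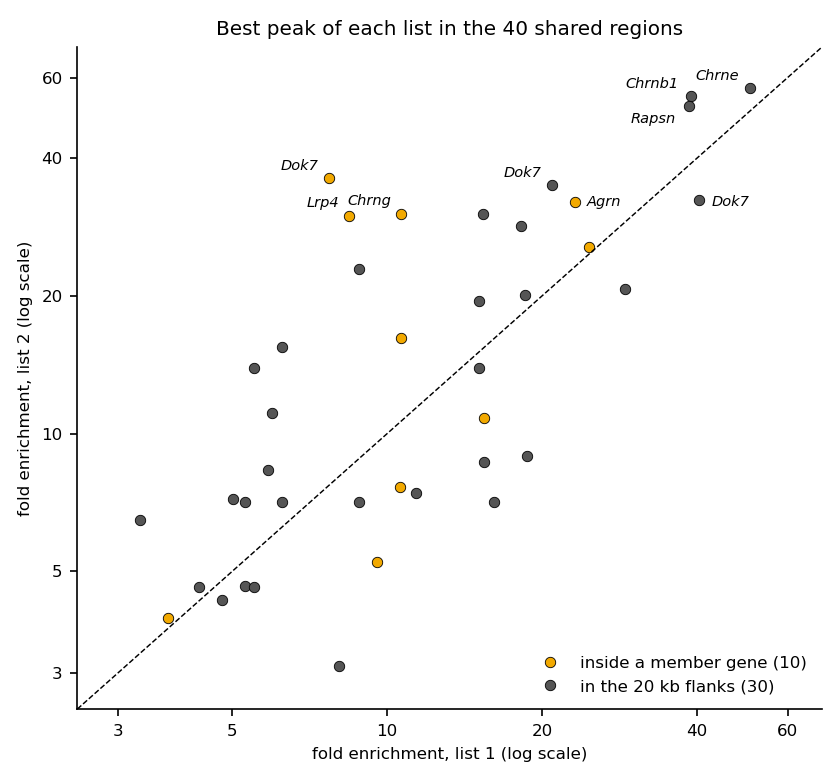
Fold enrichment of the best peak by q of list 1 (x axis) and list 2 (y axis) in each of the 40 shared regions, both on log scales, with yellow points for the 10 regions inside a junction gene and dark points for the 30 outside. The dashed line marks equal folds. The highest region of each of the Chrne, Chrnb1, Rapsn and Dok7 windows stands at the upper right. Other regions of these windows are low, such as one at 4.31 and 4.63. Regions inside Dok7, Lrp4 and Chrng lie far above the line, and their summits in the 2 lists lay 350, 165 and 204 bp apart.

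In strength the 40 regions lay near the genome's values. Of the 40 regions, 8 (20%) reached 20-fold in both lists, against 20.5% of all shared regions. Outside the junction genes lay 6 of these 8, beside 30 of all 40 regions. The 2 inside were those of Agrn and Lrp4. The median over the 40 regions of the mean percentile of −log10 q was 65.5, against 63.0 over all shared regions. Regions inside the genes had a median of 69.8 and those outside 57.0.

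Density differed between the genes and their surroundings. The spans of the 10 genes, 271.2 kb in all, held 3.69 shared regions per 100 kb, and the remaining 365.6 kb of the windows held 8.205. Counted gene by gene, the flanks of the 10 genes held 8.0, and over all protein-coding genes the values were 3.96 in spans and 4.70 in flanks. No test was run on this difference. Per gene, the density in the span and flanks ranged from 1.51 per 100 kb at Musk to 13.5 at Chrne. Chrne, Chrnb1, Rapsn and Dok7 were above 97.9%, 95.4%, 92.0% and 91.6% of protein-coding genes. Lrp4 and Chrnd stood at 71.4% and 70.3%, and Chrng, Agrn, Chrna1 and Musk at 51.2%, 48.5%, 40.7% and 14.7%. The median density of the 10 genes was 6.14 per 100 kb, against 4.27 over all protein-coding genes. Whether the number of genes packed around a locus accounts for its density was not tested.

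**Figure D3:**
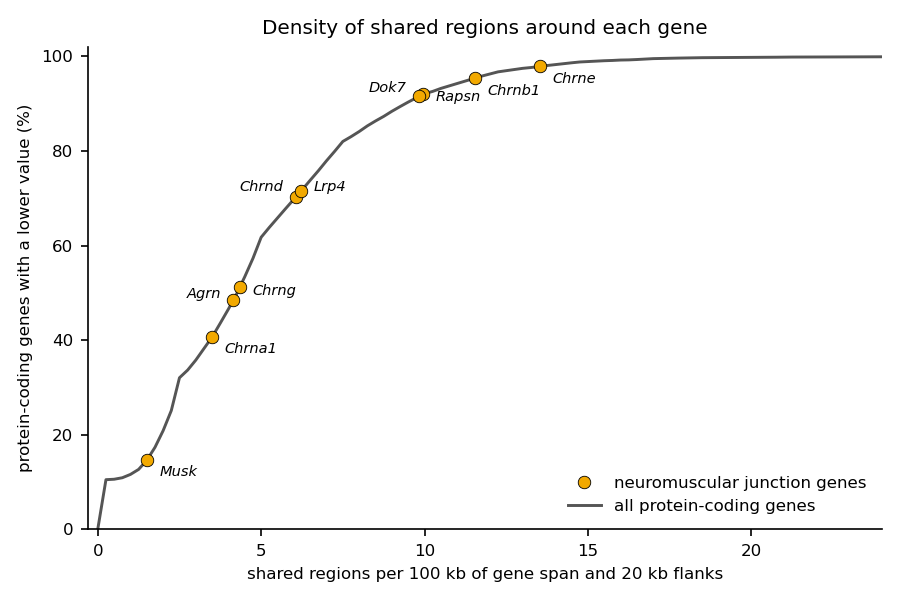
Shared regions per 100 kb of gene span and 20 kb flanks (x axis) against the percentage of protein-coding genes with a lower value (y axis), with yellow points for the 10 junction genes and a line for all 21887 genes. The junction genes are spread over the curve, from Musk at 1.51 to Chrne at 13.5 per 100 kb.

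The windows end at 20 kb, and further shared regions followed beyond them. The next one outside the Chrna1 window was 21083 bp from the gene, with folds of 9.92 and 18.2, against 18699 bp for the outermost inside. Outside the Rapsn window, a region at 23544 bp within Slc39a13 had folds of 21.6 and 48.8, against 38.6 and 51.9 for the best inside the window. Regions beyond the Chrne window (22485 bp, 29.0 and 20.1) and the Chrnd and Chrng window (26429 bp, 25.3 and 21.6) were also above 20-fold in both lists. The nearest beyond Musk was 37853 bp away, with folds of 6.45 and 12.0.

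The 10 genes were set beside 2 other gene lists. The first, the partner list, held 26 other genes of the synapse, of the cleft, the agrin and neuregulin pathways, the membrane scaffold and synaptic transcription. All 26 had a shared region within 20 kb, near the 89.6% of all protein-coding genes, and 22 of them within their span, against 56.4%. These genes are longer, with a median of 56.9 kb, against 14.5 kb for the 10 junction genes and 17.2 kb for all protein-coding genes. Their median density was 4.11 per 100 kb. By the mean percentile of q, the strongest regions were inside Dtna (80.1 and 65.2), the gene of the scaffold protein alpha-dystrobrevin, inside the laminin gene Lama5 (86.7 and 61.5), and inside Nrg1 (69.4 and 65.8), which encodes the growth factor neuregulin.

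The second list held the 11 nicotinic receptor subunit genes that are not part of the muscle receptor. Of these, 9 had a shared region within 20 kb, against 89.6% of all protein-coding genes, and 5 within their span, against 56.4%. Their median density was 2.42 per 100 kb, against 4.27 over all protein-coding genes. The strongest region lay over Chrna10 and its neighbour Art1 (29.8 and 41.9). A region over no gene, 3200 bp from Chrna6 (13.2 and 36.4), came next and falls in the windows of both Chrna6 and Chrnb3. Chrna3 and Chrna5 had no shared region. The 5 muscle subunit genes all had one within 20 kb, and 1 of the 5 held one in its span, beside the same 89.6% and 56.4% of all protein-coding genes. These shares were not adjusted for gene length, and the 5 genes are short, from 4.3 to 17.1 kb.

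**Figure D4:**
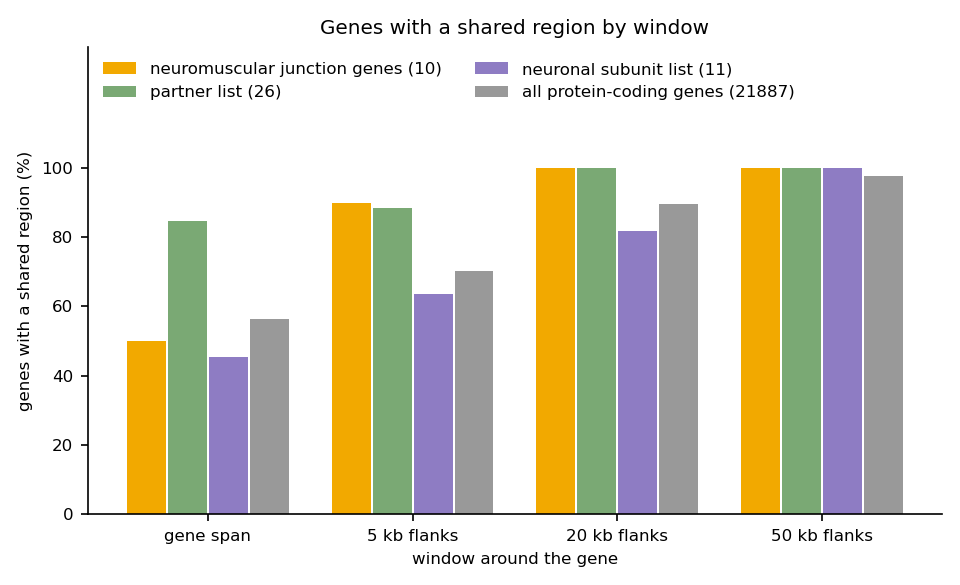
Percentage of genes with a shared region (y axis) by window around the gene (x axis) for the 10 junction genes, the partner list of 26 genes, the 11 neuronal subunit genes and all protein-coding genes. The junction genes stand at 50% in the gene span and 90% with 5 kb flanks, and all protein-coding genes at 56.4% and 70.3%.

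With flanks of 5 kb, 9 of the 10 junction genes had a shared region, all but Chrne, against 70.3% of protein-coding genes. Counted as loci it was 8 of 9, and the only such region of Chrnd (3.31 and 6.49) also lay within 5 kb of Chrng. With no flank the share of the junction genes was below that of all genes, and with 5 kb or more it was above. Lists of 10 genes move by 10 percentage points for each gene, and no test was run on these shares, because the genes were named with results of these data known.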

How the data were processed

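The study deposited 2 peak lists in narrowPeak layout, 1 per replicate. Per the submitters' processing notes, MACS2 2.1.1, Bowtie2 2.3.2, Picard 2.9.2 and build mm10 were used. Not given in the sources used here are their order and parameters, the threshold, and the treatment and control of each call. For each peak, the fold enrichment ratio at the summit and the −log10 q-value are the authors' deposited values; the narrowPeak score and the summit position in bp, another deposited column, were used as the layout defines them, the score for no result. Tagmentation, per the labels' protocols, has sequence preferences that the lists cannot show. Depth is unknown, so no interval that needs it is given.

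From these lists, peaks overlapping by 1 bp or more were linked, and each union with a peak of both lists was a shared region (97493, of which 97115 on assembled chromosomes). Gene spans came from RefSeq on GRCm38.p6, the assembly behind mm10, and starts and strand from its promoter table. A region's percentile is the share of peaks of a list with the same or a lower −log10 q, averaged over the lists. The genes and lists were chosen with earlier results of these data known. The text names all 10 genes, the neighbours their regions overlap, and the 3 genes of each other list with the highest mean percentile; further genes of those lists were named after their values were seen. No significance test was run. Alternatives were other overlaps, thresholds and windows and each list alone. The overlap code was checked on simulated peaks. The tools were pandas 2.3.3, numpy 2.4.6, matplotlib 3.10.9 and scipy 1.17.1 under Python 3.11.15.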

Additional observations from a re-analysis of the deposited data

How the results depend on the processing

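Of 67 recomputed values, 48 stayed close to the reported ones (a count within 1.5 times, a share within its interval) and 19 moved. A reciprocal overlap of 50% left 24 shared regions in the 9 loci and partnered shares of 36.9% and 38.7% in lists 1 and 2. It left a region at 8 of 9 loci, all but Chrnd and Chrng, beside 81.3% of all protein-coding genes. Linking summits within 200 bp gave partnered shares of 43.1% and 45.2%. Among the 10000 peaks of each list with the highest −log10 q, 3 of the 9 loci (Chrnb1, Chrne and Rapsn) kept a region, with 3 regions in all. So did 4512 protein-coding genes (20.6%), 7 of the 26 synapse genes and 0 of the 11 neuronal subunit genes. With gene spans alone and the interval between Chrnd and Chrng included, 5 of 9 loci and 11 regions remained, and 52.4% of the peaks of list 1 were partnered. With gene spans alone, 12347 protein-coding genes (56.4%) and 5 neuronal subunit genes had a region. Flanks of 5 kb gave 17 regions and flanks of 50 kb gave 68. At a fold of at least 5, 8 of 9 loci had a shared region, all but Musk, beside 85.9% of all protein-coding genes. Either list alone, which drops the need for a partner, gave 62 to 65 peaks in the loci and 9 of 9 loci. It gave 20722 to 21004 protein-coding genes (94.7% to 96.0%), 26 synapse genes and 11 neuronal subunit genes. Counted separately, Chrnd and Chrng each had a region, which makes 10 of 10. Thresholds, windows and single lists keep fewer or more peaks or bases, or need no partner. The rules of reciprocal overlap and summit distance kept the same 65 and 62 peaks and linked fewer of them. Part of the partnered shares thus rests on partial overlaps or on summits more than 200 bp apart. Partnered shares over all peaks were not computed under these other settings, so the lower shares cannot be read as particular to these loci. No paired analysis was possible because each list mixes the odd, even and input labels of 1 replicate and no result comes from a test. Weak regions near 3-fold to 5-fold, as at Musk, rest on the authors' threshold, and depth, which could set their precision, is unknown.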

Other observations

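These genes of the partner list were chosen after their values were seen. The counts per gene in this section are raw and not adjusted for gene length. Spans of the whole partner list held 2.96 shared regions per 100 kb, against 3.96 over all protein-coding genes. The neuregulin pathway, which promotes receptor gene transcription under the nerve ending, had 4 genes in the list. Each had a shared region within 20 kb, as did 89.6% of all protein-coding genes. Nrg1 had 30 within 20 kb and the receptor gene Erbb4 had 20, both in long genes. The receptor genes Erbb2 and Erbb3 had 9 and 2. The best region near Erbb3 (37.2 and 60.1) lay 10286 bp from the gene, and the best near Erbb2 (12.7 and 29.3) lay inside it. Among the listed synaptic transcription genes, Etv5 had 5 regions, the best 10620 bp away (33.3 and 40.8). Gabpa had 3 (best 19.1 and 5.87, over Gabpa and Atp5j) and Gabpb1 had 1 (13.96 and 9.27, over Hdc). Hdac4 had 17 (best 49.2 and 34.3, inside the gene) and Dach2 had 6 (best 22.0 and 22.9, inside the gene), both also long genes.

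In the cleft, Ache, the acetylcholinesterase gene, had a single shared region within 20 kb, 2627 bp from the gene over Srrt (9.26 and 23.1). Colq, which encodes the collagen tail that anchors the enzyme, had 3, the best inside the gene with folds of 18.4 and 22.8. In the membrane scaffold, Utrn, the gene of the dystrophin relative utrophin, had 19 in a long gene, with a best region of 47.3 and 53.1.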
